A study of Mus musculus with 6 samples.

Results

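The nuclear genes that encode the subunits of the oxidative phosphorylation machinery were followed in the hypothalamic paraventricular nucleus (PVN) of mice after a single electroconvulsive seizure (ECS). Members were the genes whose array symbol starts with Ndufa, Ndufb, Ndufc, Ndufs, Ndufv, Uqcr, Cox4 to Cox8 or Atp5, together with Cyc1 and the 4 succinate dehydrogenase genes Sdha, Sdhb, Sdhc and Sdhd. Assembly factors named Ndufaf were left out. Each gene was read through its probe set of highest mean signal, a rule that did not use the difference between groups. The rule found 80 genes, among 12393 genes that have a probe set with a single symbol and 22626 probe sets in all. Of these, 33 belong to complex I, 4 to complex II, 9 to complex III, 17 to complex IV and 17 to complex V. Ndufa4, a gene first assigned to complex I whose protein is a subunit of complex IV, was counted in complex IV.

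Groups of C57Bl/6 mice were compared. Mice of the first group received 1 shock through ear clips under isoflurane and were collected 2 h later, those of the second received the same shock and were collected at 6 h, and sham mice were handled alike without a shock and collected at 2 h. All mice were thus anaesthetised, and the labels name no engineered allele. The PVN was laser-microdissected, each array was hybridised with amplified cDNA from pooled RNA of 2 to 3 animals, and each group had 2 arrays made in separate runs of the experiment with different animals. No sham group at 6 h was analysed here, so the effect of ECS at 6 h and that of the later collection time cannot be told apart, and the 2 h and 6 h comparisons share the same sham arrays.

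Oxidative phosphorylation takes place in the inner mitochondrial membrane. Complex I (NADH dehydrogenase) and complex II (succinate dehydrogenase, which is also an enzyme of the tricarboxylic acid cycle) pass electrons to coenzyme Q, complex III (the cytochrome bc1 complex) passes them on to cytochrome c, and complex IV (cytochrome c oxidase) passes them to oxygen. Complex V (ATP synthase) uses the resulting proton gradient to make ATP, which neurons need in large part to restore ion gradients after firing. A few further subunits are encoded in mitochondrial DNA and are not members here.

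The mean rank correlation of an array with the other 5 was 0.846 to 0.89, lowest for ECS 6 h replicate 1. Deposited array medians ranged from 25.2 to 40.8, and signals were quantile-normalised and taken as log2(signal + 16). ECS 6 h replicate 1 stood apart, with a Gapdh 3′ to 5′ signal ratio of 14.1 against 6.43 to 10.5 on the other 5 arrays and a first principal component score of 54.6 against -25.2 to 7.06. The PVN peptides marked the tissue on all arrays: the log2 signal of Oxt lay between 10.80 and 11.48 and that of Avp between 9.53 and 10.14. Markers of surrounding forebrain neurons were uneven. The 9 cortex, hippocampus and thalamus markers on the array summed to a signal of 99.4 and 250 on the ECS 2 h arrays and 332 and 699 on the ECS 6 h arrays, against 832 and 988 on the sham arrays, and none of them was at 0. Of the 5 bright enough to be tested, 4 were below sham and 1 above at each time. Among the 9, 3 were below the array median on all arrays.

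Most members gave strong signals. Of the 80 genes, 75 passed the filter for testing, which required a signal at or above the array's own median on at least 2 of the 6 arrays. All but 2 of those, 73, did so on all 6 arrays, and 64 members were in the top 10% of mean signal over all probe sets. The 5 genes below the filter were Cox4i2, Cox6b2, Cox7c, Cox8b and Cox8c. Cox4i2, the alternative isoform of the regulatory subunit Cox4i1, had deposited signals of 3.5 and 9.3 at ECS 2 h and 3.1 and 18.1 at ECS 6 h, against 1.2 and 2.0 in sham. Cox7c, a subunit of cytochrome c oxidase in all tissues, gave 9.5 and 19.1 at ECS 2 h and 21.6 and 20.6 at ECS 6 h, against 11.7 and 11.5 in sham, all of them below the array medians. The muscle isoform Cox8b ranged from 1.0 to 19.3, the testis isoform Cox6b2 from 3.6 to 32.1, and Cox8c, also known from testis, from 1.2 to 12.6 over the 6 arrays. Signals this low carry no order between groups.

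No member passed the test in any of the 3 comparisons. limma, fitted on 12662 probe sets with adjustment over all of them, called 0 of the 75 members at 2 h against sham, at 6 h against sham and at 6 h against 2 h, where the share of all probe sets called was 0% each time. At an unadjusted p under 0.05 there was 1 member higher and 0 lower at ECS 2 h, where 1.72% of all probe sets were higher and 2.28% lower. At ECS 6 h there was 1 member higher and 2 lower, against 1.71% and 2.05% of all probe sets. In the comparison of ECS 6 h with ECS 2 h there were 0 in either direction, against 1.61% and 1.83%. With 2 arrays in each group an exact permutation test of a single gene cannot go below a p of 1 in 3.

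The members had smaller log2 changes than probe sets in general. At ECS 2 h the log2 change against sham ran from -0.557 (Cox8a) to 0.667 (Ndufa7) over the 75 members, and 0 reached 1 in size, while 3.66% of all probe sets did, and at ECS 6 h it ran from -0.699 (Sdhd) to 0.624 (Ndufb1), with 0 against 3.7%. The median size of the change was 0.125 for members and 0.252 for all probe sets at 2 h, and 0.121 and 0.255 at 6 h. The members' changes were also measured more tightly, with a median standard error of 0.223 against 0.408 over all probe sets. Most members had much stronger signals than probe sets in general, and they were not compared with probe sets of similar signal. Whether the smaller changes and standard errors go with signal level or with the members as such was not tested. The 95% interval of the change lay within -1 to 1 for 62 of the 75 members at 2 h and for 59 at 6 h, and within -0.5 to 0.5 for 24 and 26. Because the tissue is a mixture, fewer cells of a type and less RNA per cell cannot be told apart in any of these values.

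How the members split around sham depended on the scaling. With median subtraction 56 members were above sham and 19 below at 2 h, and 62 and 13 at 6 h. The counts that follow are those with quantile normalization unless another scaling is named. At ECS 2 h, 40 members were above sham (50.9% of all probe sets were) and 35 below (49.1%), with a median log2 change of 0.0217 where the median of all probe sets was 0.00768. The other scalings move all probe sets together, by a median of 0.101 at 6 h with median subtraction, so a median whose sign turns under them is also given relative to that of all probe sets. On this relative scale the member median at 2 h was 0.014 here and 0.076 to 0.0836 under the other 3 scalings. At ECS 6 h, 34 were above sham (49.6% of all probe sets) and 41 below (50.4%), with a median of -0.0208 (all probe sets -0.00321). The relative median of -0.0176 turned to 0.0757 without scaling, 0.075 with median subtraction and 0.0616 with scaling to a trimmed mean. Array by array, the members' median deviation from each gene's mean was 0.0774 and -0.0131 at ECS 2 h and -0.00143 and -0.0522 at ECS 6 h, against 0.0857 and -0.0414 in sham. The groups overlapped, and replicate 1 lay above replicate 2 in every group. The arrays of the groups did not overlap, with ECS higher, for 15 members at 2 h (20%, against 16.3% of all probe sets) and with ECS lower for 11 (14.7%, against 16.4%). At 6 h the counts were 8 above (10.7%, against 14.8%) and 17 below (22.7%, against 15.3%). Without sham replicate 2, 30 members were above sham and 45 below at 2 h (median -0.056), and 21 and 54 at 6 h (median -0.0958). Without ECS 6 h replicate 1, 26 of 73 members were above sham at 6 h and 47 below, with a median of -0.035.

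**Figure D1:**
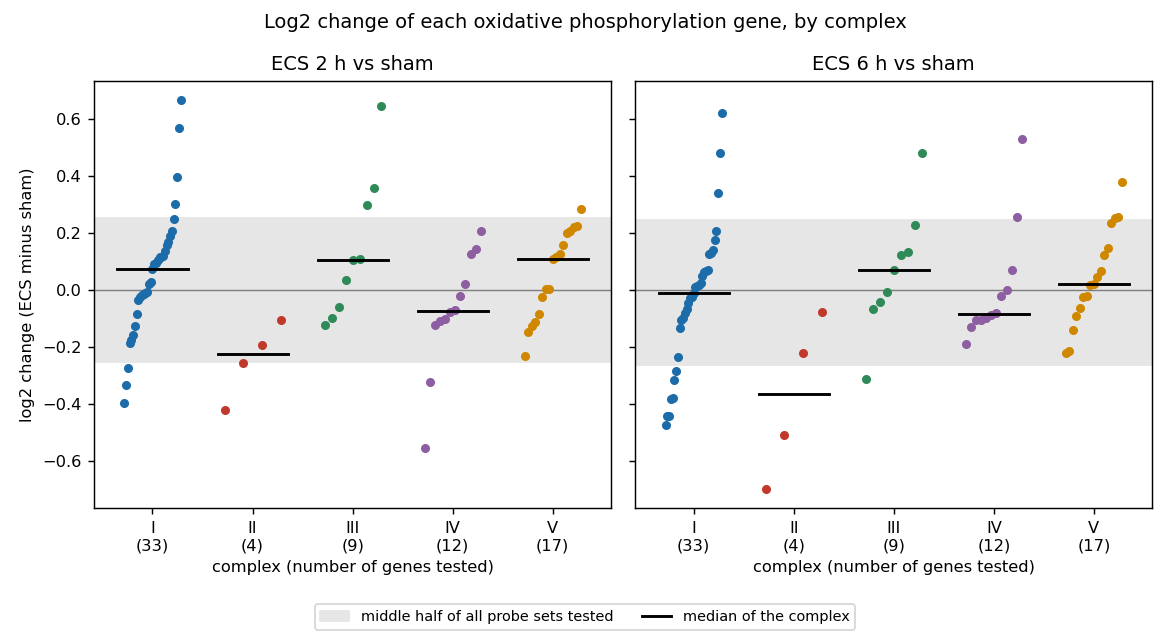
Log2 change of each tested gene (1 point each), ECS minus sham, at 2 h (left) and 6 h (right), by complex on the horizontal axis, with a black line at the median of the complex and a grey band over the interquartile range of all 12662 probe sets tested. All 4 complex II genes lie below 0 in both panels under the scaling used (2 of them lie above 0 at 6 h with median subtraction and 1 without scaling), and the other complexes have points on both sides.

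Complex II was the only complex in which every gene was below sham at both times under the scaling used. The median log2 change of Sdha, Sdhb, Sdhc and Sdhd was -0.224 at ECS 2 h and -0.366 at ECS 6 h, and it was negative under each scaling, from -0.235 to -0.115 at 2 h and from -0.366 to -0.177 at 6 h. Leaving out 1 array moved it between -0.496 (without sham replicate 1) and -0.0629 (without ECS 2 h replicate 1, where 2 of the 4 genes were above sham) at 2 h. At 6 h it moved between -0.655 (without ECS 6 h replicate 2) and -0.16 (without ECS 6 h replicate 1). The signs of the single genes were less stable: with median subtraction 2 of the 4 lay above sham at 6 h, and without scaling 1 did. None of the 4 genes passed the test.

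Sdha encodes the flavoprotein that oxidises succinate. Its log2 signals were 11.43 and 11.43 at ECS 2 h and 11.40 and 11.40 at ECS 6 h, against 11.64 and 11.61 in sham. Both ECS groups thus lay below sham with almost no spread within a group. The log2 change was -0.192 ± 0.131 (SE) at 2 h (limma adjusted p = 0.999) and -0.222 ± 0.131 at 6 h (adjusted p = 1), where it became 0.00989 with median subtraction. The gene's other probe set gave -0.112 at 2 h and -0.289 at 6 h.

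Sdhb encodes the iron-sulfur subunit that carries electrons on from the flavin. The log2 signals were 8.74 and 9.63 at ECS 2 h and 8.69 and 9.51 at ECS 6 h, against 9.53 and 9.69 in sham. The low values were those of replicate 1 at both ECS times, and the 2 h group overlapped sham. The change was -0.422 ± 0.359 at 2 h and -0.51 ± 0.359 at 6 h, and it became 0.0222 without ECS 2 h replicate 1 and -0.0941 without ECS 6 h replicate 1.

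Sdhc and Sdhd encode the membrane anchor that holds the coenzyme Q site. Sdhc had log2 signals of 9.87 and 10.41 at ECS 2 h and 9.83 and 10.51 at ECS 6 h, against 9.65 and 10.84 in sham, so its groups overlapped and its 2 sham arrays enclosed the other 4. Sdhd had 9.92 and 10.14 at ECS 2 h and 9.40 and 9.77 at ECS 6 h, against 10.05 and 10.53 in sham. Both 6 h arrays lay below both sham arrays, and the 6 h change of -0.699 ± 0.248 (95% interval -1.25 to -0.15) had an adjusted p of 1 in limma. It ranged from -0.94 to -0.462 over the alternatives. The other probe set of Sdhd went the opposite way, with a log2 change of 0.249 at 2 h and 0.144 at 6 h.

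**Figure D2:**
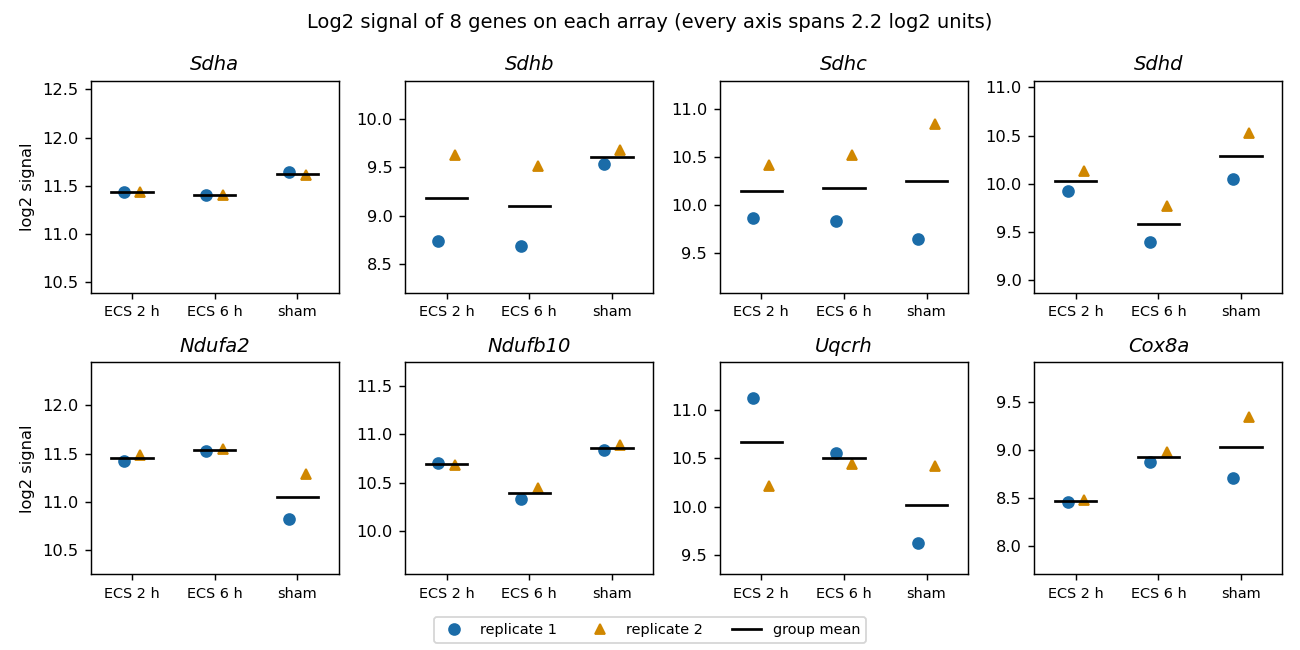
Log2 signal (vertical axis) of the 4 complex II genes and of Ndufa2, Ndufb10, Uqcrh and Cox8a on each array, for ECS 2 h, ECS 6 h and sham from left to right. Circles are replicate 1, triangles replicate 2 and lines the group means. The 2 arrays of a group nearly coincide for Sdha and lie 1.2 log2 units apart in sham for Sdhc.

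Complex I, the largest complex, had genes on both sides of sham. At ECS 2 h 19 of its 33 genes were above sham and 14 below, with a median of 0.0727, and at ECS 6 h 16 were above and 17 below, with a median of -0.00943 (relative to all probe sets -0.00622, and 0.0616 to 0.0757 under the other 3 scalings). The counts moved with the scaling, to 26 above and 7 below at 2 h with median subtraction or a trimmed mean and to 25 and 8 at 6 h with median subtraction or none. Without sham replicate 2 the medians were -0.0543 at 2 h, with 14 genes above sham and 19 below, and -0.0924 at 6 h, with 10 and 23. The 6 tested genes of the electron-input and iron-sulfur core had medians of -0.0173 at 2 h and -0.0184 at 6 h (relative to all probe sets -0.025 and -0.0152, and 0.0312 to 0.0467 under the other scalings), and the 27 accessory genes had 0.09 and 0.0102.

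Among the core genes, Ndufv1 and Ndufv2 belong to the NADH-oxidising module. Their log2 changes were -0.0098 and -0.0247 at ECS 2 h and -0.235 and 0.0696 at ECS 6 h. Ndufs1, the largest iron-sulfur subunit of that module, had -0.335 ± 0.419 at 2 h and -0.384 ± 0.419 at 6 h. Ndufs7 and Ndufs8, which carry the clusters next to coenzyme Q, had 0.304 and 0.17 at 2 h and 0.0671 and -0.0273 at 6 h. Ndufs3 had log2 signals of 8.39 and 8.77 at ECS 2 h and 8.95 and 8.99 at ECS 6 h, against 8.86 and 9.10 in sham. Its 2 h arrays lay below all 4 others, and its change was -0.397 ± 0.285 at 2 h and -0.00943 at 6 h.

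Ndufa2, an accessory subunit on the matrix arm, had the smallest p among the members in both comparisons with sham. Its log2 signals were 11.42 and 11.48 at ECS 2 h and 11.53 and 11.54 at ECS 6 h, against 10.82 and 11.28 in sham. All 4 ECS arrays lay above both sham arrays, and the low value was that of sham replicate 1. The log2 change was 0.399 ± 0.17 at 2 h (95% interval 0.0233 to 0.775, limma adjusted p = 0.999) and 0.484 ± 0.17 at 6 h (0.108 to 0.86, adjusted p = 1). Without sham replicate 1 it was 0.168 at 2 h and 0.251 at 6 h, and without sham replicate 2 it was 0.636 and 0.723. The array had 1 probe set for the gene, of the kind shared by several transcripts.

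Ndufb10, an accessory subunit of the membrane arm, was low at 6 h. Ndufb10 had log2 signals of 10.70 and 10.68 at ECS 2 h and 10.34 and 10.45 at ECS 6 h, against 10.84 and 10.89 in sham, so the 3 groups did not overlap. The change was -0.175 ± 0.172 at 2 h and -0.474 ± 0.172 at 6 h (95% interval -0.853 to -0.0941, limma adjusted p = 1). It kept its sign under every alternative, from -0.532 to -0.272 at 6 h, and it too rested on 1 probe set.

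Further accessory genes of complex I were named by smallest p in a comparison with sham. The exceptions were Ndufab1, named by role, and Ndufb1, which had the highest change of all members at 6 h. Ndufa13, also known as Grim19, had a log2 change of 0.251 ± 0.13 at ECS 2 h and 0.127 at 6 h. Ndufa3 had 0.208 at 2 h and 0.341 ± 0.186 at 6 h, and its 4 ECS arrays lay between 10.55 and 10.81, above the sham arrays at 10.26 and 10.48. Ndufa7 had log2 signals of 8.95 and 8.76 at ECS 2 h against 8.70 and 7.68 in sham, a change of 0.667 ± 0.382 that was 0.158 without sham replicate 2. Ndufa9 had -0.275 at 2 h and -0.443 ± 0.289 at 6 h. Ndufb2 had 8.49 and 9.09 at ECS 6 h against 9.51 and 8.95 in sham, so its groups overlapped, and its 6 h change of -0.444 was -0.147 without ECS 6 h replicate 1. Ndufab1, the mitochondrial acyl carrier protein, had 0.09 at 2 h and 0.0496 at 6 h. Ndufb1, a dim gene that reached the array median on 2 arrays, had log2 signals of 6.69 and 4.83 on the ECS 6 h arrays and is given without a reading.

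Complex III had 6 of 9 genes above sham at ECS 2 h, with a median of 0.106, and 5 of 9 at ECS 6 h, with a median of 0.0689, both also positive relative to all probe sets under the other scalings. At 6 h the median was -0.0797 without sham replicate 2 and -0.0696 without ECS 6 h replicate 1. At 2 h its 4 catalytic and core genes had a median of -0.0317 (range -0.123 to 0.106) and its 5 small subunits one of 0.298 (range -0.0593 to 0.647), and the difference between these overlapping ranges was not tested. Cyc1, the cytochrome c1 that reduces cytochrome c, had log2 signals of 9.16 and 8.97 at ECS 2 h and 8.78 and 8.97 at ECS 6 h, against 9.21 and 9.17 in sham. All ECS arrays lay below the sham arrays, with log2 changes of -0.123 ± 0.263 at 2 h and -0.314 ± 0.263 at 6 h. The Rieske iron-sulfur protein Uqcrfs1 had a log2 change of -0.097 at 2 h and 0.229 at 6 h, and the core proteins Uqcrc1 and Uqcrc2 had 0.106 and 0.0337 at 2 h and -0.00671 and 0.134 at 6 h.

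Uqcrh, the hinge protein that binds cytochrome c1, had the largest change of complex III. The log2 signals of Uqcrh were 11.12 and 10.21 at ECS 2 h and 10.56 and 10.44 at ECS 6 h, against 9.62 and 10.42 in sham. The high value of ECS 2 h replicate 1 and the low one of sham replicate 1 set the 2 h change of 0.647 ± 0.32: within replicate 1 the difference was 1.5, and within replicate 2 it was -0.207. Among the other small subunits, Uqcr11 and Uqcr10 had 0.359 ± 0.294 and 0.298 ± 0.293 at 2 h and 0.0689 and 0.121 at 6 h, and Uqcrb, known as a ubiquinone-binding protein, had -0.0593 and -0.0677.

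Complex IV had 8 of 12 genes below sham at ECS 2 h (median -0.0743) and 9 of 12 at ECS 6 h (median -0.0852). Relative to all probe sets the medians were -0.082 at both times, and 0.0213 to 0.0331 at 2 h and 0.0193 to 0.0387 at 6 h under the other 3 scalings, so that the sign turned. Apart from Cox8a and Cox6a1, given below, the single changes of the common subunits were small. Cox4i1, the regulatory subunit, had -0.0702 at 2 h and -0.19 ± 0.157 at 6 h, Cox5a -0.123 and -0.0886, Cox5b -0.0784 and -0.0818, Cox6c 0.0219 and -0.106, and Cox7a2 -0.104 and -0.105. Cox7a2l, which takes part in joining complexes III and IV into supercomplexes, had -0.107 and -0.0208, and Ndufa4 had 0.145 and 0.0697.

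Cox8a, a small subunit found in most tissues, had the lowest change of all members at 2 h. Its log2 signals were 8.46 and 8.47 at ECS 2 h and 8.88 and 8.98 at ECS 6 h, against 8.71 and 9.34 in sham. The 2 h arrays lay below all others, with a change of -0.557 ± 0.302 that was -0.245 without sham replicate 2 and -0.87 without sham replicate 1, and the other tested probe set of the gene gave 0.0357. Cox6a1 had 10.71 and 10.64 at ECS 2 h and 11.10 and 10.64 at ECS 6 h, against 11.10 and 10.90 in sham, a 2 h change of -0.325 ± 0.194. Its isoform of heart and skeletal muscle, Cox6a2, was dim, with 5.20 and 5.51 at ECS 2 h and 5.73 and 5.79 at ECS 6 h, against 5.15 and 5.31 in sham. Its 6 h change of 0.53 ± 0.435 moved between 0.257 and 0.803 with the alternatives. Cox7a1, also a muscle isoform, had 0.208 at 2 h and 0.256 at 6 h.

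Complex V had 11 of 17 genes above sham at ECS 2 h (median 0.109) and 10 of 17 at ECS 6 h (median 0.0205), positive under each scaling but not without each array. Without sham replicate 2 the medians were -0.162 and -0.121, with 5 and 4 of 17 genes above sham. They were -0.12 at 2 h without ECS 2 h replicate 1 and -0.0147 at 6 h without ECS 6 h replicate 1. Of the 5 genes of the F1 head and central stalk, 4 lay below sham at each time, with medians of -0.113 and -0.142 (relative to all probe sets -0.121 and -0.139, and -0.0283 and -0.0117 with median subtraction). The count turned with median subtraction, to 3 above sham and 2 below at each time, with medians of 0.0117 and 0.0893. Atp5a1, the alpha subunit, had a log2 change of -0.086 ± 0.117 at 2 h and -0.142 ± 0.117 at 6 h. The catalytic beta subunit Atp5b had -0.149 and -0.215, the gamma subunit Atp5c1 -0.113 and -0.0928, the delta subunit Atp5d -0.233 and -0.223, and the epsilon subunit Atp5e 0.286 ± 0.257 and 0.0447.

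The 5 small membrane subunits of complex V (Atp5j2, Atp5k, Atp5l, Atp5md and Atp5mpl) were all above sham at ECS 2 h under each scaling, with a median of 0.209, and 3 of them had no overlap with sham, as 16.3% of all probe sets did. Without sham replicate 2, Atp5l was at -0.397 and Atp5mpl at -0.178 at 2 h. At ECS 6 h 4 of 5 were above sham, with a median of 0.148. Atp5k, the e subunit at the dimer interface, had log2 signals of 12.13 and 12.26 at ECS 2 h and 11.90 and 12.08 at ECS 6 h, against 12.08 and 11.86 in sham, and its 2 h change of 0.222 ± 0.128 had a 95% interval of -0.0619 to 0.505. Atp5j2, the f subunit, had 11.52 and 11.66 at ECS 2 h and 11.46 and 11.61 at ECS 6 h, against 11.33 and 11.45 in sham. Its change was 0.2 ± 0.14 at 2 h and 0.148 at 6 h, with 0.196 within replicate 1 and 0.203 within replicate 2 at 2 h. The 3 genes of the c-ring, whose products are the same mature protein with different import sequences, had 6 h changes of 0.381 ± 0.376 (Atp5g1), 0.256 ± 0.472 (Atp5g2) and -0.0648 ± 0.16 (Atp5g3). Atp5o, a peripheral stalk subunit that links head and membrane, had 0.00338 at 2 h and -0.0254 at 6 h.

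**Figure D3:**
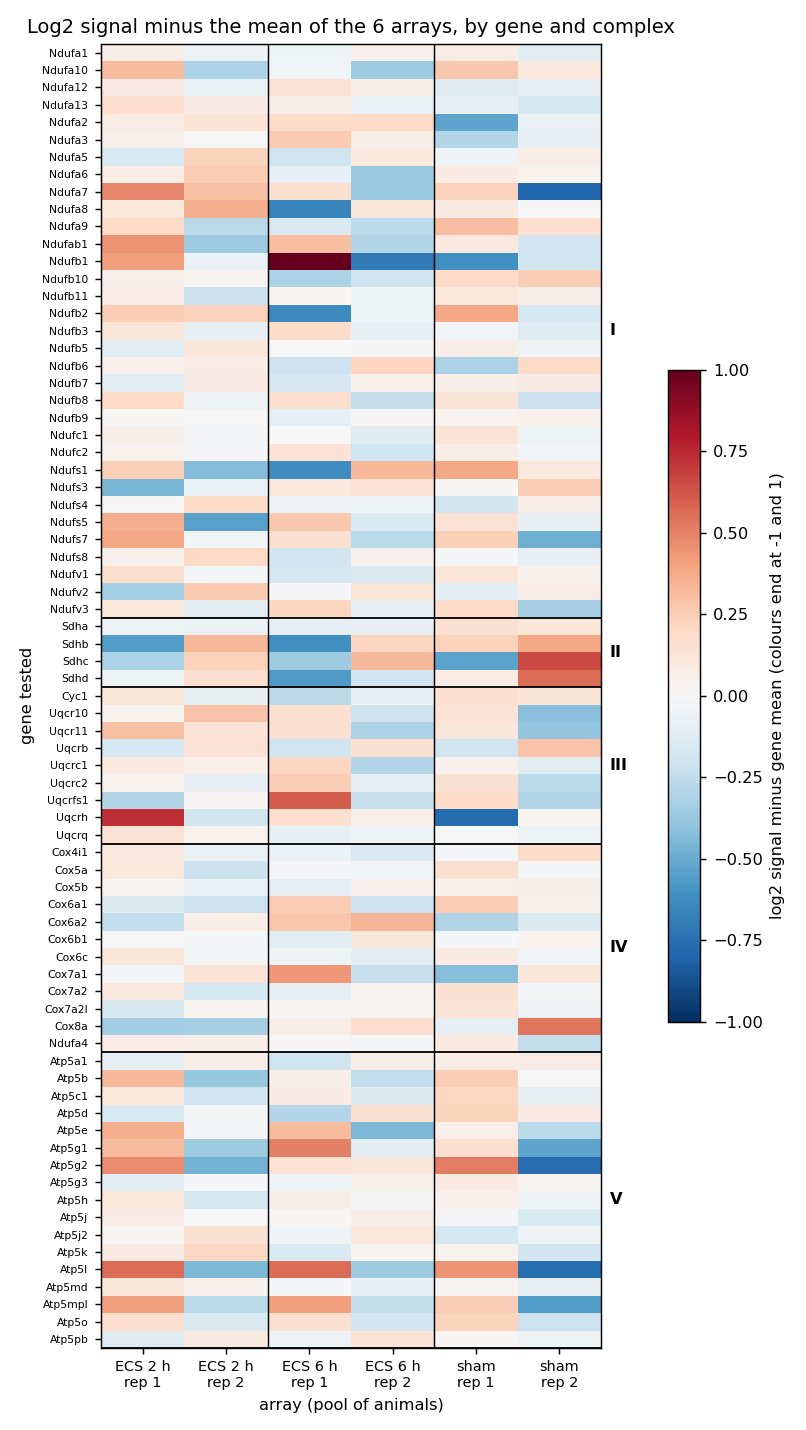
Log2 signal of each tested gene minus its mean over the 6 arrays (colour, red above and blue below, ending at -1 and 1), with genes in rows by complex and arrays in columns for ECS 2 h, ECS 6 h and sham. Atp5l, Atp5mpl and Ndufa7 are red in replicate 1 and paler or blue in replicate 2 of each group, and Sdhb and Sdhc are redder in replicate 2.

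The members at 6 h after ECS were also set against those at 2 h. In the comparison of ECS 6 h with ECS 2 h, 30 members were higher at 6 h (49% of all probe sets were) and 45 lower (51%), with a median of -0.0392 (all probe sets -0.00807), and the median turned to 0.0743 with median subtraction and 0.168 without scaling. Both 6 h arrays lay above both 2 h arrays for 5 members, where 14.4% of all probe sets did, and below them for 15 (20% of members), where 15% did. The smallest p was that of Ndufb2, at 8.49 and 9.09 at ECS 6 h against 9.38 and 9.36 at ECS 2 h, a difference of -0.58 ± 0.308 (limma adjusted p = 0.999). The next members by p were Sdhd (-0.443), Ndufa8 (-0.508), Ndufb10 (-0.298), Atp5k (-0.205), Cox8a (0.458), Ndufs3 (0.387) and Ndufa6 (-0.392). Ndufs3 and Cox8a, both low at 2 h, lay near sham at 6 h.

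Members were also compared between replicate numbers. The replicate numbers were taken as the 2 runs of the experiment, and deviations from group means correlated between same-numbered arrays of different groups by 0.152 to 0.229 over all probe sets. Replicate 1 lay above replicate 2 in all 3 groups for 31 of the 75 members (41.3%, against 18.4% of all probe sets) and below it for 14 (18.7%, against 18.2%). The median size of the mean replicate difference was 0.164 over the members. Among genes above in replicate 1, Atp5l had the largest difference, 1.04, followed by Atp5g2 (0.751), Atp5mpl (0.715) and Atp5g1 (0.659), all of complex V, where 10 of 17 genes were above in replicate 1 each time and 1 below. Complex II ran the other way, with 3 of 4 genes below in replicate 1 in each group, led by Sdhc (-0.81) and Sdhb (-0.623).

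With the replicate number as a block, 4 members were higher and 1 lower at an unadjusted p under 0.05 at ECS 2 h, where 3.05% and 3.47% of all probe sets were. At ECS 6 h 2 were higher and 3 lower, where 2.88% and 3.39% were, and at ECS 6 h against ECS 2 h 0 were higher and 3 lower, where 2.68% and 3.02% were. The log2 changes are the same with and without the block. None of the members was called with it at 2 h, where 0.0316% of all probe sets were, or in the other comparisons, where 0% were, the smallest adjusted p in limma being 0.553 at 2 h, 0.678 at 6 h and 0.849 between them. Within replicate 1 the median member change was 0.013 at 2 h and -0.0672 at 6 h, and within replicate 2 it was 0.0473 and 0.0189. Both replicates put 26 members above sham at 2 h (34.7%, against 27.6% of all probe sets) and 19 below (25.3%, against 26.6%).

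**Figure D4:**
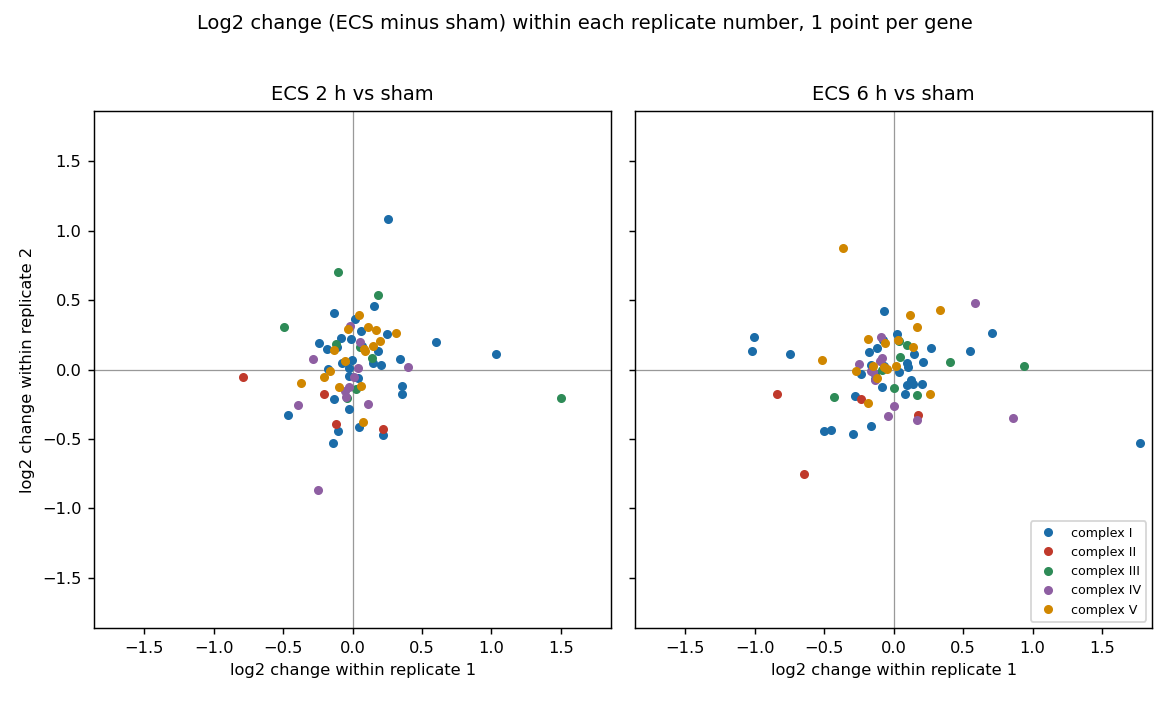
Log2 change of each tested gene (ECS minus sham) within replicate 1 (horizontal axis) and within replicate 2 (vertical axis), at 2 h (left) and 6 h (right), coloured by complex. Points spread over all 4 quadrants, and the point at 1.5 on the horizontal axis of the left panel is Uqcrh, at -0.207 in replicate 2.

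Different probe sets of the same gene often disagreed. Of the 42 members with several tested probe sets, all of a gene's probe sets had the same sign in 17 at 2 h, in 24 at 6 h and in 23 between 6 h and 2 h. Of the probe sets used for the 80 members, 9 carry the suffix for probes that may bind several unrelated transcripts. A further 12 carry the suffix for probes shared by several transcripts. Those of Sdhc, Sdhd, Cox8a and Ndufa3 are among the 9, and those of Ndufa2 and Ndufa13 are among the 12. Many subunit genes have processed pseudogenes of close sequence, so such values are uncertain.

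Other genes of mitochondrial energy metabolism were read in lists, by the same fit. The glycolysis list stood lowest: 13 of its 14 tested genes were below sham at ECS 2 h, with a median log2 change of -0.262 and 6 genes without overlap (16.4% of all probe sets were below without overlap). At ECS 6 h 11 of 14 were below, with a median of -0.129. That count was 7 without scaling (median 0.00612) and 7 with median subtraction (median 0.0316). With a trimmed mean it was 9. Relative to all probe sets the 6 h median was -0.126, and it stayed below 0 under the other scalings, from -0.0851 to -0.0692. Hk1, which traps glucose in the cell, had a log2 change of -0.95 ± 0.407 at 2 h, and it was the 1 glycolysis gene with an unadjusted p under 0.05 at that time. At 6 h that gene was Pgam1, a mutase of the lower part of the pathway. Pgam1 had log2 signals of 11.07 and 11.11 at ECS 2 h and 11.08 and 11.09 at ECS 6 h, against 11.45 and 11.37 in sham. All 4 ECS arrays lay below sham, with log2 changes of -0.316 ± 0.145 at 2 h and -0.323 at 6 h. None of these passed adjustment.

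The lists nearest to the respiratory chain lay on both sides of 0. Of 32 tested assembly factors, 19 were above sham at ECS 2 h (median 0.086) and 15 at ECS 6 h (median -0.00499, relative to all probe sets -0.00178, or 0.005 with median subtraction). The 12 tested genes of mobile carriers and coenzyme Q synthesis had medians of 0.208 and 0.146, with 8 and 9 above sham. Within replicate 1 their medians were 0.477 at 2 h and 0.244 at 6 h, and within replicate 2 they were -0.119 and 0.0268. Cycs, cytochrome c itself, had 0.0228 at 2 h and 0.0587 at 6 h, and the coenzyme Q methyltransferase Coq5 had 1.12 ± 0.418 at 6 h (not passing adjustment). The tricarboxylic acid cycle list had 12 of 18 genes below sham at 2 h (median -0.0827) and 10 of 18 at 6 h (median -0.0763, relative to all probe sets -0.0731, or 0.024 with median subtraction), and its fumarase gene Fh1 had -0.691 ± 0.312 at 2 h. The 12 tested mitochondrial carriers had medians of -0.153 and -0.0204, the second at -0.0172 relative to all probe sets and at 0.038 with median subtraction. The 8 antioxidant and uncoupling genes had 0.0637 and -0.00869, the second at -0.00548 relative to all probe sets and at 0.04 with median subtraction.

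**Figure D5:**
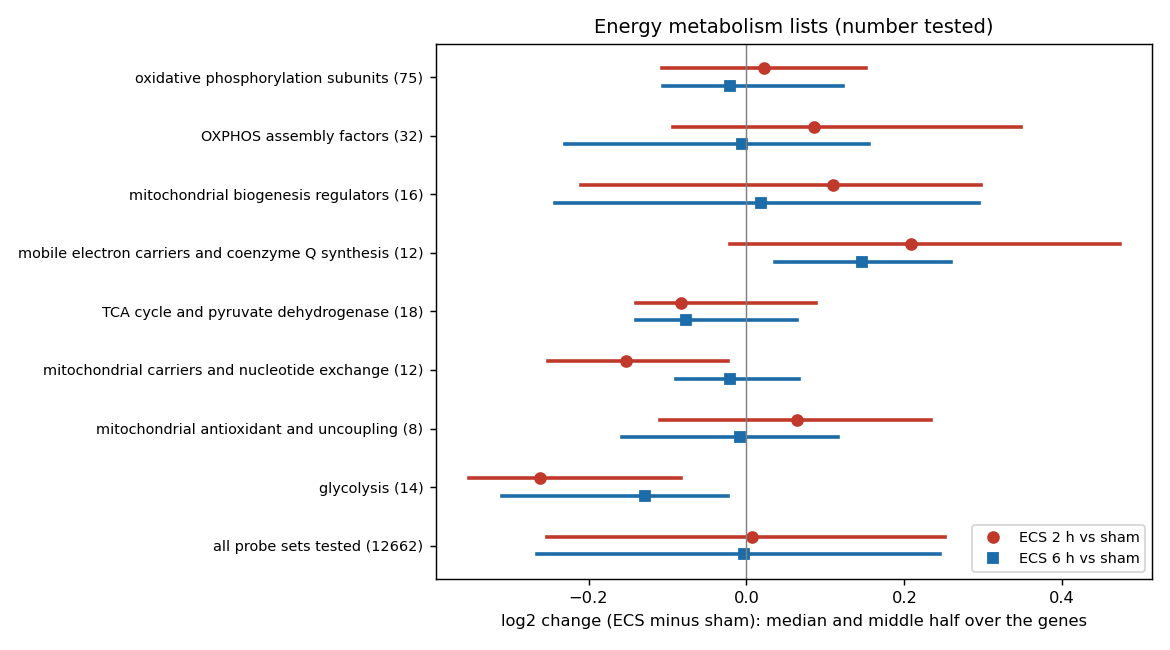
Median (symbol) and interquartile range (line) of the log2 change, ECS minus sham, over the tested genes of each energy metabolism list and over all probe sets tested, at 2 h (circles) and 6 h (squares). The oxidative phosphorylation subunits have medians of 0.0217 and -0.0208, beside 0.00768 and -0.00321 for all probe sets. The glycolysis list has the lowest medians in both comparisons, and it lies below all probe sets under each scaling.

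Regulators of the subunit genes were measured as well. Ppargc1a, the coactivator PGC-1α, had log2 signals of 7.56 and 8.30 at ECS 2 h and 8.57 and 7.98 at ECS 6 h, against 7.69 and 7.84 in sham, and both 6 h arrays lay above sham, with a log2 change of 0.51. Nrf1, a factor that binds promoters of many respiratory chain genes, had log2 changes of -0.505 ± 0.436 at 2 h and 0.185 at 6 h, and Tfam, the mitochondrial transcription factor A, had 0.0899 and 0.378. Yy1 had 9.43 and 9.12 at ECS 2 h and 8.25 and 8.43 at ECS 6 h, against 8.04 and 8.62 in sham. Its 2 h arrays lay above all others, with a change of 0.946 ± 0.314 (not passing adjustment). Esrra was below the filter. Of the 16 regulators tested, 11 were above sham at 2 h (median 0.11) and 9 at 6 h (median 0.0188). At 2 h, 6 were above sham within replicate 1 and 8 within replicate 2. Only 2 were above within both (12.5%, against 27.6% of all probe sets), and 4 were below within both. Without scaling, 8 were above sham at 2 h and 8 below.

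Short motifs of such factors were looked up in the promoters of the members, with RefSeq windows of 300 bases (250 before to 50 after the listed start, build GRCm38.p6) for the 65 members that matched. Each motif was searched on both strands. The NRF1 core CGCATGCG was in 7 of the 65 windows (10.8%), against 2.54% of 17492 protein-coding genes. The YY1 letters AAGATGGCG were in 5 (7.69%, against 1.94%), the ETS letters CCGGAAGT bound by GABPA in 5 (7.69%, against 5.29%), and the estrogen-related receptor letters TCAAGGTCA in 2 (3.08%, against 0.332%), namely Sdhd and Atp5g3. The median GC content was 58.7% in the members' windows and 56.3% in all. To show what such a match looks like, the stretches around the NRF1 core (in capitals) are given for the 5 genes in which it lies wholly before the start, all on the minus strand and printed 5′ to 3′ along the gene.
Atp5g2 (chr15:102671048-102671133): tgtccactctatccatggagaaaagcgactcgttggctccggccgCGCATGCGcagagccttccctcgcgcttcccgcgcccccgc
Atp5k (chr5:108434400-108434493): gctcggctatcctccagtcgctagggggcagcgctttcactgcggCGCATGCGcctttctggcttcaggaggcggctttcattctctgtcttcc
Atp5l (chr9:44920931-44920992): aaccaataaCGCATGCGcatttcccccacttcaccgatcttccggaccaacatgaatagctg
Cox6a1 (chr5:115349067-115349164): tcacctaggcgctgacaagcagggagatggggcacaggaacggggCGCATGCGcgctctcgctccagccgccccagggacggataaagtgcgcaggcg
Ndufa8 (chr2:36049339-36049392): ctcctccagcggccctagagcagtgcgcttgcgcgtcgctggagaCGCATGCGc
The first base of the core lies 41, 49, 241, 161 and 9 bases before the listed start of Atp5g2, Atp5k, Atp5l, Cox6a1 and Ndufa8, in that order. At ECS 2 h their log2 changes against sham were 0.126, 0.222, 0.209, -0.325 and 0.19, so Cox6a1 stood on the other side of sham from the remaining 4. Leaving out sham replicate 2 put Atp5g2 at -0.509 and Atp5l at -0.397, while Atp5k and Ndufa8 stayed above sham. Uqcr11, in which the core spans the start, had 0.359, and Uqcrc1, in which it lies after the start, had 0.106. The 7 genes had a median of 0.19 at 2 h and 0.0164 at 6 h, against 0.00229 and -0.00943 in the 55 tested genes whose window lacks the core. None of the 7 passed the test. For the YY1 letters the 2 h median was 0.158 with and 0.0217 without the match. For the ETS letters it was -0.0262 and 0.0297, and for the estrogen-related receptor letters -0.191 and 0.0512. These differences were not tested.

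Cell type markers were read on the same arrays. Of 18 neuron markers, 14 were below sham at ECS 2 h and 15 at ECS 6 h, with medians of -0.331 and -0.223, and their summed signal was 16920 and 17090 at ECS 2 h and 17700 and 19130 at ECS 6 h, against 21610 and 20990 in sham. Of 6 tested oligodendrocyte markers, 5 were below sham at each time, and the 9 on the array summed to 2792 and 2989 at ECS 2 h and 2475 and 2660 at ECS 6 h, against 3701 and 3357 in sham. The 10 astrocyte markers summed to 4509 and 4610 at ECS 2 h and 4220 and 4530 at ECS 6 h, against 4852 and 4418 in sham. The summed signal of the PVN neuroendocrine markers ran the other way. It was 8813 and 8568 at ECS 2 h and 9269 and 9047 at ECS 6 h, against 6834 and 7609 in sham. Of the 9 tested, 7 were above sham and 2 below at each time. Endothelial and mural markers summed to 1126 and 1288 at ECS 2 h, 995 and 1282 at 6 h and 906.5 and 1264 in sham. Microglia and macrophage markers summed to 1696 and 1364 at ECS 2 h, 1726 and 1397 at 6 h and 1762 and 1484 in sham. The choroid plexus and ependymal markers were all too dim to be tested. They summed to 32.06 and 46.86 at ECS 2 h, 28.28 and 42.25 at 6 h and 17.63 and 17.7 in sham. No marker of these lists was at 0. Their part in the values of the subunit genes and of the glycolysis list was not tested.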

How the data were processed

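Values were deposited as MAS5 intensity signals on a linear scale, made by the authors per the submitters' processing notes; the software version and target level are not stated there. Per the labels' protocols, 2 ng of total RNA was amplified. The 64 control probe sets were left out. Because array medians differed by 61.9%, log2(intensity + 16) was quantile-normalised. The 12662 probe sets (56%) at or above the array median on at least 2 arrays were tested with limma 3.58.1 (R 4.3.3, intensity trend, 3 residual and 7.64 prior degrees of freedom, two-sided, Benjamini-Hochberg at 0.05). The offset shrinks changes of dim genes. The number of arrays limits the precision, and p-values measure the spread between pools.

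Symbols came from the array annotation, where 20380 probe sets had 1 symbol, 691 several and 1555 none, and all 80 members matched RefSeq. The 8 probe sets that name a member-type gene beside another gene were not used. Members, lists and the rule for naming genes (the 8 smallest p per comparison, the 3 smallest per complex and genes named by role) were chosen with earlier results of these data known. Replicate numbers were taken to mark the 2 runs; correlations of same-numbered deviations were 0.152, 0.185 and 0.229. Alternatives were the offset, scaling, filter, variance model, replicate block, other probe sets and leaving out arrays. The NRF1 letters were shortened to their centre after a first search with a longer form. The procedure was also run on simulated data with independent noise on each array. Those data held neither a shared run effect nor the real pairing of spread with signal level.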

Additional observations from a re-analysis of the deposited data

Results flagged for a closer look

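Uqcrq, a small subunit of complex III known as a ubiquinone-binding protein, was picked out because its ECS arrays lay on opposite sides of sham at the 2 times. Its log2 signals were 8.97 and 8.86 at ECS 2 h and 8.75 and 8.78 at ECS 6 h, against 8.83 and 8.78 in sham. The difference between ECS 6 h and ECS 2 h was -0.154 (limma adjusted p = 0.999), so it did not pass the test. The separation at 6 h was smaller than 0.01 on the log2 scale between the nearest ECS 6 h and sham arrays.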

How the results depend on the processing

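No member had an adjusted p under 0.05 in limma under any alternative, leave-one-out fits included: of 3801 member changes recomputed, 0 did, and 368 changed sign. Of 225 member changes, 69 kept their sign throughout. Over all probe sets, where 0 were called in each comparison, 2 h against sham gave 1 call without scaling, 1 with median subtraction, 2 with array weights, 4 with the replicate block, 7 with only the 4 arrays of the comparison, and 0 to 10 without 1 replicate. At 6 h against sham the calls without 1 replicate were 0 to 6, and at 6 h against 2 h 0 to 3. The replicate block changed no member's call.

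The member median moved with the scaling, and the cause was not tested. It was 0.116 at 2 h with median subtraction (56 higher, 19 lower), 0.151 at 6 h without scaling (61 and 14) and 0.176 with median subtraction (62 and 13), and at 6 h against 2 h 0.168 without scaling (64 and 11) and 0.0743 with median subtraction (51 and 24). Scaling to a trimmed mean gave 54 higher and 21 lower at 2 h and 47 and 28 at 6 h. Median subtraction moved the median of all probe sets to 0.101 at 6 h, and no scaling moved it to 0.16 at 6 h against 2 h. Relative to that, the members' medians were 0.075 and 0.008, both of the opposite sign to the medians with quantile normalization, whereas at 2 h the relative median stayed above 0. Leaving out 1 array gave medians of -0.056 to 0.0801 at 2 h, -0.0958 to 0.00289 at 6 h and -0.0924 to -0.0265 at 6 h against 2 h. Without sham replicate 2, 30 members were higher and 45 lower at 2 h, and 21 and 54 at 6 h. Counts without ECS 6 h replicate 1 and for single lists were added after seeing the data.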
